A study of Mus musculus with 8 samples.

Results

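The mitochondrial ribosome of mouse lung was examined through the 78 genes whose symbols begin with Mrpl or Mrps followed by a digit, pseudogene symbols aside, out of 18824 genes in the deposited count table. The rule uses symbols and no measured value, although the gene family was picked with earlier results of these data known. It takes 49 genes under the Mrpl name and 29 under the Mrps name. The study compared lungs of Slc15a3-/- mice given bleomycin (KO_BLM, n = 4 libraries) with lungs of wild-type mice given the same drug (WT_BLM, n = 4 libraries). SLC15A3, also called PHT2, is a transporter of histidine and peptides in the membrane of endosomes and lysosomes, and the series concerns its role in pulmonary fibrosis. All mice were 8 weeks of age when bleomycin (2 mg/kg, in 50 µl of saline) was instilled through the trachea on day 0, and lungs were taken on day 21. Bleomycin breaks DNA and leaves fibrotic scars in rodent lung, and both groups carry this injury. Saline-treated mice were not analysed here. The labels give no batch, and they do not say that each library came from a separate animal, so the p-values below measure only the spread between these libraries, which may be technical.

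Mitochondria keep their own ribosome, a descendant of the bacterial one, which translates the few proteins still encoded in mitochondrial DNA. These proteins are core subunits of the respiratory chain and of ATP synthase. All proteins of the mitochondrial ribosome are encoded in the nucleus, made on cytosolic ribosomes and imported. Its large subunit joins amino acids and holds the exit tunnel, and its small subunit reads the messenger RNA. Some of its proteins have a bacterial homologue, while others were added in the mitochondrial lineage.

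Total counts ran from 17627999 to 18471445 per library in KO_BLM and from 18878835 to 20180831 in WT_BLM. Slc15a3, the targeted gene, averaged 0.610 ± 0.303 CPM in KO_BLM and 51.3 ± 4.11 CPM in WT_BLM (SD, n = 4 each; log2 fold change -6.36). CPM values are read counts brought to equal library sizes by trimmed-mean (TMM) factors. The 46 marker genes of lung cell types were all present in every library. Fibroblast markers summed to 2474 to 2878 CPM in KO_BLM and 7651 to 8612 CPM in WT_BLM, and macrophage markers to 382.2 to 770.4 CPM and 1196 to 1234 CPM. Alveolar type 2 markers summed to 20270 to 31560 CPM in KO_BLM and 7558 to 10940 CPM in WT_BLM, and ciliated cell markers to 435.4 to 562.5 CPM and 117.5 to 187.1 CPM. Markers of NK and T cells summed to 57.15 to 130.8 CPM in KO_BLM and 8.88 to 24.1 CPM in WT_BLM, and those of B cells to 160.0 to 248.8 CPM and 24.24 to 80.94 CPM. Genes of proliferating cells had a median log2 fold change of -1.09, with 3 of 5 lower. Endothelial and alveolar type 1 markers had 3 of 4 and 2 of 4 higher, and heart muscle markers 1 of 4. Sums of these overlapped between KO_BLM and WT_BLM: proliferating 47.71 to 83.17 and 61.98 to 151.4 CPM, endothelial 1709 to 2738 and 1263 to 1764 CPM. Alveolar type 1 sums were 3625 to 4016 and 3008 to 4050 CPM, and heart muscle sums 53.88 to 188.3 and 25.99 to 112.1 CPM. In the test described below, 20.7% of all genes tested were higher and 20.8% lower. The part of the marker lists in the results below was not tested. In such bulk samples fewer cells of a type and less RNA per cell cannot be told apart. Replicate 4 of WT_BLM stood apart, with the highest of the 8 values for 25.2% and the lowest for 25.8% of all genes tested.

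The mitochondrial ribosomal protein genes as a whole had nearly the same share of the transcriptome in both groups. A smaller share of them passed the test than of all genes tested. All 78 passed the filter on low counts, and the lowest count of any of them in any library was 107. They took 0.210%, 0.213%, 0.232% and 0.233% of all counts in KO_BLM replicates 1 to 4, against 0.206%, 0.225%, 0.216% and 0.206% in WT_BLM replicates 1 to 4. Their summed level was 2155 ± 69.3 CPM in KO_BLM and 2197 ± 42.0 CPM in WT_BLM (SD, n = 4 each), and the ranges of the groups overlapped. In the quasi-likelihood test of edgeR across all genes, with Benjamini-Hochberg adjustment at 0.05, 4 rose and 8 fell in KO_BLM, which is 15.4% of the members. Of all 14746 genes tested, 41.5% passed the same threshold, 20.7% higher and 20.8% lower. When libraries were scaled by their totals alone, 11 members were called higher and 5 lower.

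The median log2 fold change of the members was -0.08, with the middle 50% of values between -0.19 and 0.12, beside a median of 0.00 and a middle range of -0.30 to 0.34 over all genes tested. Scaling by library totals alone moved the median of the members to 0.01 and that of all genes to 0.09. The log2 fold changes of the members lay between -0.56 and 0.67, so none reached 1 in size, whereas 1887 of the 14746 genes tested did. The 95% interval of the fold change lay wholly within 1.5-fold in either direction for 67 members (85.9%), beside 45.0% of all genes tested and 54.2% of 7813 other genes in the same range of mean CPM. The median SD within groups was 0.11 on the log2 scale for the members and 0.17 for those other genes. For 23 members (29.5%) the libraries of the groups did not overlap, 7 higher and 16 lower in KO_BLM, beside 40.9% of all genes tested (20.3% higher, 20.7% lower).

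**Figure D1:**
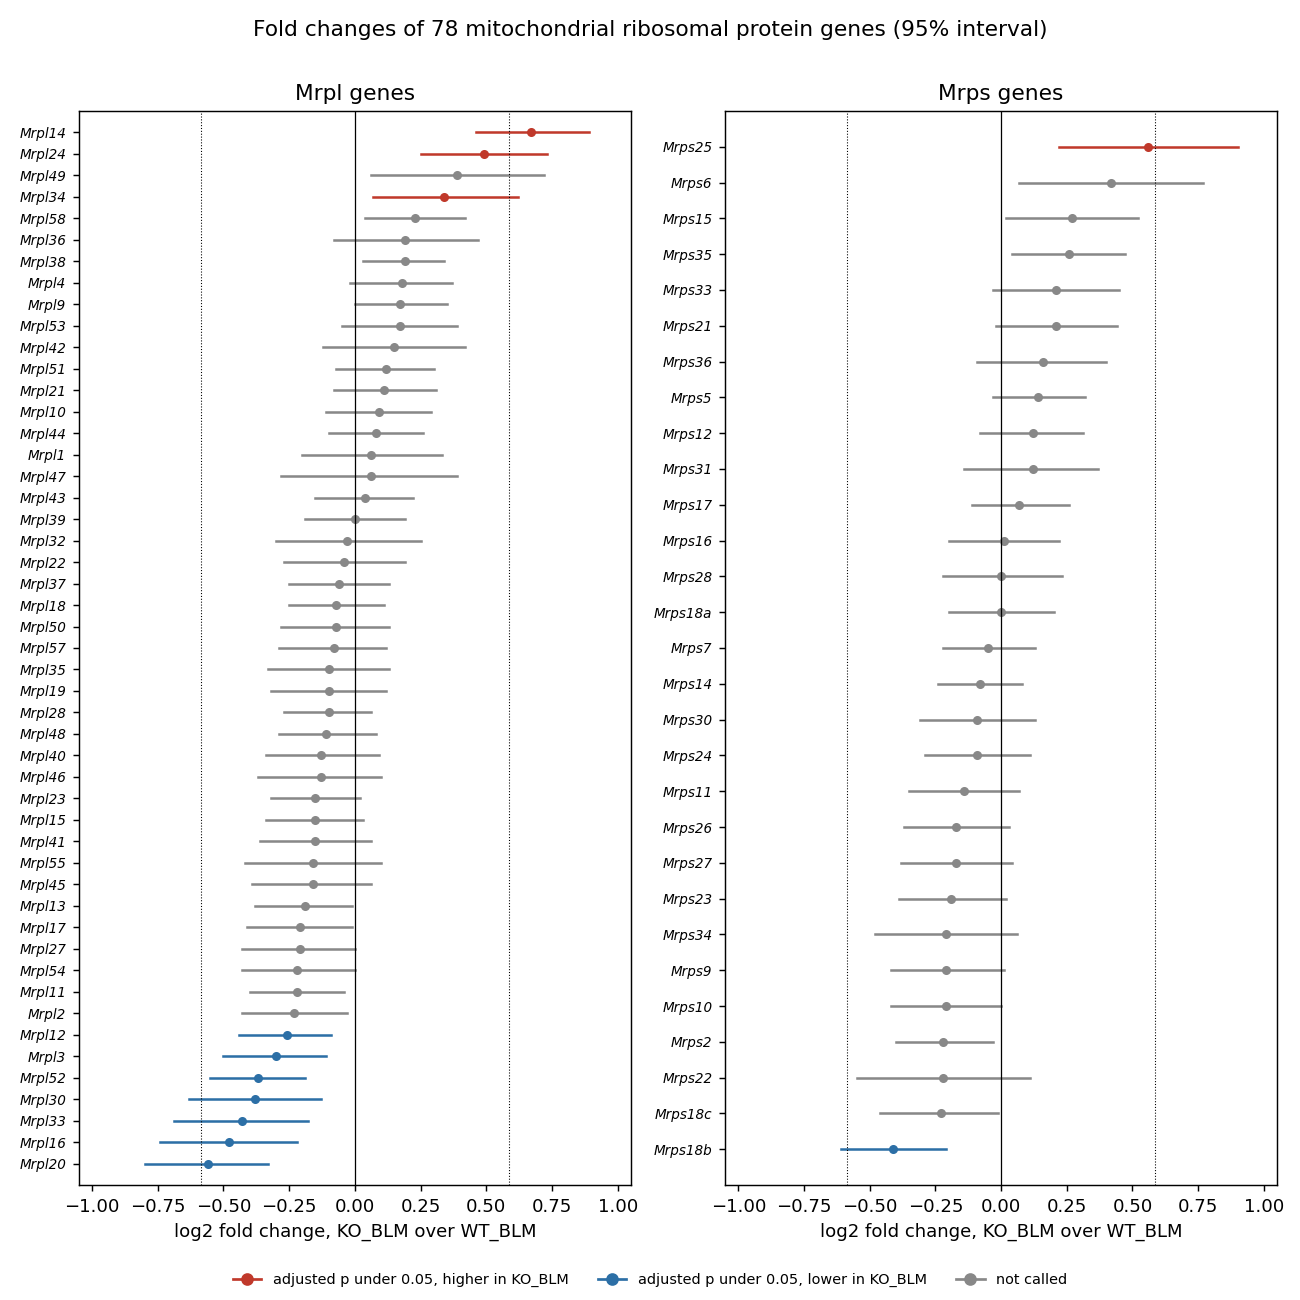
Log2 fold change of each member in KO_BLM over WT_BLM (x axis; points with 95% intervals as bars) for the Mrpl genes on the left and the Mrps genes on the right, with dotted lines at 1.5-fold in either direction. The 4 members called higher are red, the 8 called lower are blue, and the 66 not called, in grey, lie around 0.

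Promoters of 69 members were found in a RefSeq table of the GRCm38.p6 build, each window running from 250 bases before to 50 after the annotated start. Nuclear genes for mitochondrial proteins are known for binding sites of NRF1, of the ETS factor GABP (also called NRF2) and of YY1. The NRF1 motif, in the form of the capitals of Mrpl14 below with any base at the sixth place, was present on either strand in 13 member promoters (18.8%), beside 9.34% of 11600 other tested genes. The ETS motif CCGGAAG was present in 25 (36.2%, beside 16.4%) and the YY1 motif AAGATGGCG in 8 (11.6%, beside 2.78%), and the ETS and YY1 motifs can share the letters AAG. At least 1 of the motifs was found in 40 member promoters (58.0%) and in 25.8% of the others. By outcome, it was 2 of the 4 members called higher, 6 of the 8 called lower and 32 of the 57 not called that had a promoter. These are letter matches and show no binding.

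The windows below show the motifs in members that moved in opposite directions and in the 3 paralogues of the S18 protein, with the matched letters in capitals (RefSeq, GRCm38.p6; chr17:45686099-45686398 on the plus strand for Mrpl14, chr5:31613701-31614000 plus for Mrpl33, chr17:46110754-46111053 plus for Mrps18a, chr17:35916391-35916690 minus for Mrps18b and chr5:100798509-100798808 plus for Mrps18c).
Mrpl14: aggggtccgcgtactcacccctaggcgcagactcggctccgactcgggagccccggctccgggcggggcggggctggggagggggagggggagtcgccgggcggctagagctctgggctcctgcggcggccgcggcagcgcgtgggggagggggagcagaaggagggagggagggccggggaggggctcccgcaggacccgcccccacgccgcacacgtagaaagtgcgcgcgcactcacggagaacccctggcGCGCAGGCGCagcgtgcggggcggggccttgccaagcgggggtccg
Mrpl33: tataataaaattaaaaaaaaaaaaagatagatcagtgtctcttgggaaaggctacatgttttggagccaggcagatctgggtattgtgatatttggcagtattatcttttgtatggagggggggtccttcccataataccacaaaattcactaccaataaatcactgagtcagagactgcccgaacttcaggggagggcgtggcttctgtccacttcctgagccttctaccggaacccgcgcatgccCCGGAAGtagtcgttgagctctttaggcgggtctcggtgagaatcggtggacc
Mrps18a: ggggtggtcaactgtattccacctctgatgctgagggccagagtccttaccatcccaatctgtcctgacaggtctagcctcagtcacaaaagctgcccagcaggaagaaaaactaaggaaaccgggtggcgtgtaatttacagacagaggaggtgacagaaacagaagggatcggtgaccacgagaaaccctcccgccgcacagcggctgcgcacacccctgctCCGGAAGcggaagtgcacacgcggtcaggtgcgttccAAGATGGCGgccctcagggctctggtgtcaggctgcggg
Mrps18b: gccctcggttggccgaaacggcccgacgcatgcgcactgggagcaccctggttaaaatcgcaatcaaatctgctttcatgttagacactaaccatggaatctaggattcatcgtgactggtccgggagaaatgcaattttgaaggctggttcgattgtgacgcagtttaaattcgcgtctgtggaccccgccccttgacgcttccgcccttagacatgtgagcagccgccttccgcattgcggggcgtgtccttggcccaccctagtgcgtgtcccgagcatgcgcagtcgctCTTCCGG
Mrps18c: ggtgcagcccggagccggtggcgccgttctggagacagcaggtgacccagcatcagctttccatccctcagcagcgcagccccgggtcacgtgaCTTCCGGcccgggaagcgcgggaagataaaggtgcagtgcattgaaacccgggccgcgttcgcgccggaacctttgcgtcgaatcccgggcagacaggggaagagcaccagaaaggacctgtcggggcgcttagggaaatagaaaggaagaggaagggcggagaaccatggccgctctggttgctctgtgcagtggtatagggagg
Counting the start as base 1, Mrpl14 carried an NRF1 match from base 5 on, and Mrpl33 an ETS match that began 3 bases before its start. Mrps18a carried an ETS match 26 bases before and a YY1 match from base 12 on. Mrps18b and Mrps18c carried the ETS motif on the other strand, from base 44 on and from 156 bases before the start. The windows of Mrps25, Mrpl24, Mrpl20 and Mrpl16 held none of these letters.

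The members that rose were Mrpl14, Mrps25, Mrpl24 and Mrpl34. Mrpl14 encodes a large subunit protein at the face that meets the small subunit, and it lies at chr17:45685722-45698495 (GRCm38). It measured 39.9, 36.7, 39.1 and 36.0 CPM in KO_BLM replicates 1 to 4, against 23.4, 25.0, 26.3 and 20.4 CPM in WT_BLM replicates 1 to 4. Every KO_BLM library was above every WT_BLM library. The level was 1.60-fold that of WT_BLM (0.67 on the log2 scale, SE 0.10; edgeR adjusted p = 0.000672). The deposited gene length of Mrpl14 was 7525 bases, while its exons in GENCODE M21 cover 949, and the gene model behind the deposited length is not given in the sources used here. Its GENCODE exons share 106 bases with Tmem63b on the opposite strand, and Tmem63b itself had a log2 fold change of -0.02 (edgeR adjusted p = 0.934), a sign that turned positive when libraries were scaled by totals.

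Mrps25, a small subunit protein with no bacterial homologue, at chr6:92169512-92184023, measured 23.3, 21.2, 22.2 and 23.1 CPM in KO_BLM, against 14.2, 18.5, 17.3 and 10.9 CPM in WT_BLM. The groups did not overlap, although the WT_BLM libraries were widely spread. Its log2 difference of 0.56, with an SE of 0.15, passed the test (edgeR adjusted p = 0.0159). Its exons overlap those of Nr2c2, a nuclear receptor gene on the opposite strand, over 4590 bases. Nr2c2 had a log2 fold change of -0.06 (edgeR adjusted p = 0.650), with a positive sign under scaling by totals.

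Mrpl24, a homologue of a bacterial protein of the large subunit, at chr3:87918131-87923450, had the highest mean CPM of all members. It measured 81.4, 82.4, 79.5 and 85.8 CPM in KO_BLM, against 55.5, 64.8, 66.2 and 47.5 CPM in WT_BLM, with no overlap. The log2 fold change was 0.49 ± 0.11 (SE, edgeR adjusted p = 0.00555). Rrnad1, which overlaps its exons by 594 bases on the opposite strand, also rose (log2 fold change 0.53, edgeR adjusted p = 0.0130). How the authors' counting treated strand is not given in the sources used here. Reads of such overlapping pairs therefore cannot be told apart.

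Mrpl34, a small protein of the large subunit with a bacterial homologue, measured 20.9, 23.8, 24.2 and 25.8 CPM in KO_BLM, against 15.2, 19.4, 22.1 and 17.9 CPM in WT_BLM. It was the only called member whose groups overlapped, by the lowest KO_BLM and the highest WT_BLM library. Its log2 fold change was 0.34 ± 0.12 (SE, edgeR adjusted p = 0.0477), and the call was lost under 7 of 21 alternatives, 6 of which left out 1 library (KO_BLM replicate 2, 3 or 4, or WT_BLM replicate 1, 2 or 4; adjusted p from 0.0681 to 0.123).

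The members that fell were Mrpl20, Mrpl16, Mrpl33, Mrps18b, Mrpl30, Mrpl52, Mrpl3 and Mrpl12, of which only Mrps18b belongs to the small subunit. Mrpl20 has a bacterial homologue that binds ribosomal RNA early in the assembly of the large subunit. At chr4:155802878-155808831, it measured 36.7, 34.4, 36.7 and 37.4 CPM in KO_BLM, against 50.5, 50.9, 47.6 and 65.7 CPM in WT_BLM. The KO_BLM libraries lay within a narrow band below all WT_BLM libraries, and replicate 4 was the highest in WT_BLM. The log2 fold change, -0.56 with an SE of 0.11 (edgeR adjusted p = 0.00275), was the largest decrease among the members. Mrpl20 overlapped no exon of another gene.

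Mrpl16, a homologue of the bacterial L16 protein near the site where peptide bonds are made, lies at chr19:11770415-11774956. It measured 10.8, 10.5, 13.7 and 13.0 CPM in KO_BLM, against 16.4, 16.6, 16.1 and 17.8 CPM in WT_BLM, which is a log2 fold change of -0.48 with an SE of 0.12 (edgeR adjusted p = 0.00955). Mrpl33, a homologue of the bacterial L33 protein at chr5:31613951-31622644, measured 24.9, 26.1, 32.9 and 34.4 CPM in KO_BLM, against 41.1, 38.9, 38.8 and 40.9 CPM in WT_BLM (log2 fold change -0.43, SE 0.11; edgeR adjusted p = 0.0130). In both genes replicates 3 and 4 of KO_BLM were closer to WT_BLM than replicates 1 and 2, and the groups did not overlap.

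Mrps18b is 1 of 3 mammalian paralogues of the bacterial S18 protein. Its product and that of Mrps18c sit at different places on the small subunit, while that of Mrps18a sits on the large subunit. Mrps18b, at chr17:35910380-35916440, measured 14.98, 14.6, 16.3 and 14.4 CPM in KO_BLM, against 19.3, 20.1, 19.4 and 21.1 CPM in WT_BLM (log2 fold change -0.41, SE 0.09; edgeR adjusted p = 0.00613). Mrps18c measured 16.7, 17.9, 18.9 and 19.0 CPM in KO_BLM, against 22.9, 21.5, 18.3 and 22.6 CPM in WT_BLM, and did not pass the test (log2 fold change -0.23, 95% interval -0.46 to -0.01, edgeR adjusted p = 0.0902). Mrps18a measured 34.3, 32.0, 34.4 and 30.1 CPM in KO_BLM, against 30.9, 36.0, 34.1 and 29.95 CPM in WT_BLM, with overlapping groups and a 95% interval of -0.20 to 0.20 for its log2 fold change. The 3 paralogues thus gave 1 call, and differences between their fold changes were not tested.

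Mrpl52, a protein of the large subunit with no bacterial homologue, had the highest level per length of all members, at 93.9 ± 7.41 FPKM in KO_BLM and 114 ± 9.70 FPKM in WT_BLM (SD, n = 4 each). Its CPM values were 35.5, 37.1, 37.4 and 40.2 in KO_BLM, against 46.5, 53.1, 45.8 and 48.5 in WT_BLM, with no overlap (log2 fold change -0.37, SE 0.08; edgeR adjusted p = 0.00535). Mrpl30, a homologue of bacterial L30, measured 31.5, 32.3, 39.8 and 36.6 CPM in KO_BLM, against 40.1, 44.6, 43.7 and 53.6 CPM in WT_BLM (log2 fold change -0.38, SE 0.11; edgeR adjusted p = 0.0231). Its groups were separated by a narrow gap, between KO_BLM replicate 3 and WT_BLM replicate 1.

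Mrpl3, whose bacterial homologue reaches towards the catalytic centre, measured 34.5, 33.5, 35.3 and 33.5 CPM in KO_BLM, against 41.4, 40.5, 38.7 and 48.4 CPM in WT_BLM (log2 fold change -0.30, SE 0.09; edgeR adjusted p = 0.0182). Mrpl12 forms the flexible stalk that recruits translation factors. It measured 41.1, 39.1, 44.5 and 45.7 CPM in KO_BLM, against 50.8, 50.0, 48.8 and 55.0 CPM in WT_BLM (log2 fold change -0.26, with SE 0.08 and edgeR adjusted p = 0.0244). The groups did not overlap for either gene. The calls of Mrpl30, Mrpl3 and Mrpl12 were lost under 6, 5 and 7 of 21 alternatives in that order. These included scaling by library totals (adjusted p = 0.0710, 0.0523 and 0.121) and limma on log2(FPKM + 1), with adjusted p = 0.0712, 0.102 and 0.0905. Limma on log2(FPKM + 0.1) gave adjusted p = 0.0701, 0.103 and 0.0927, and limma on log2(FPKM + 1) without a filter 0.0886, 0.125 and 0.0949. They were also lost without KO_BLM replicate 2 (adjusted p = 0.0759, 0.0600 and 0.0910). The calls of Mrpl30 and Mrpl12 were lost without KO_BLM replicate 1 as well (adjusted p = 0.0624 and 0.0633), and that of Mrpl12 without WT_BLM replicate 1 (adjusted p = 0.0548).

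**Figure D2:**
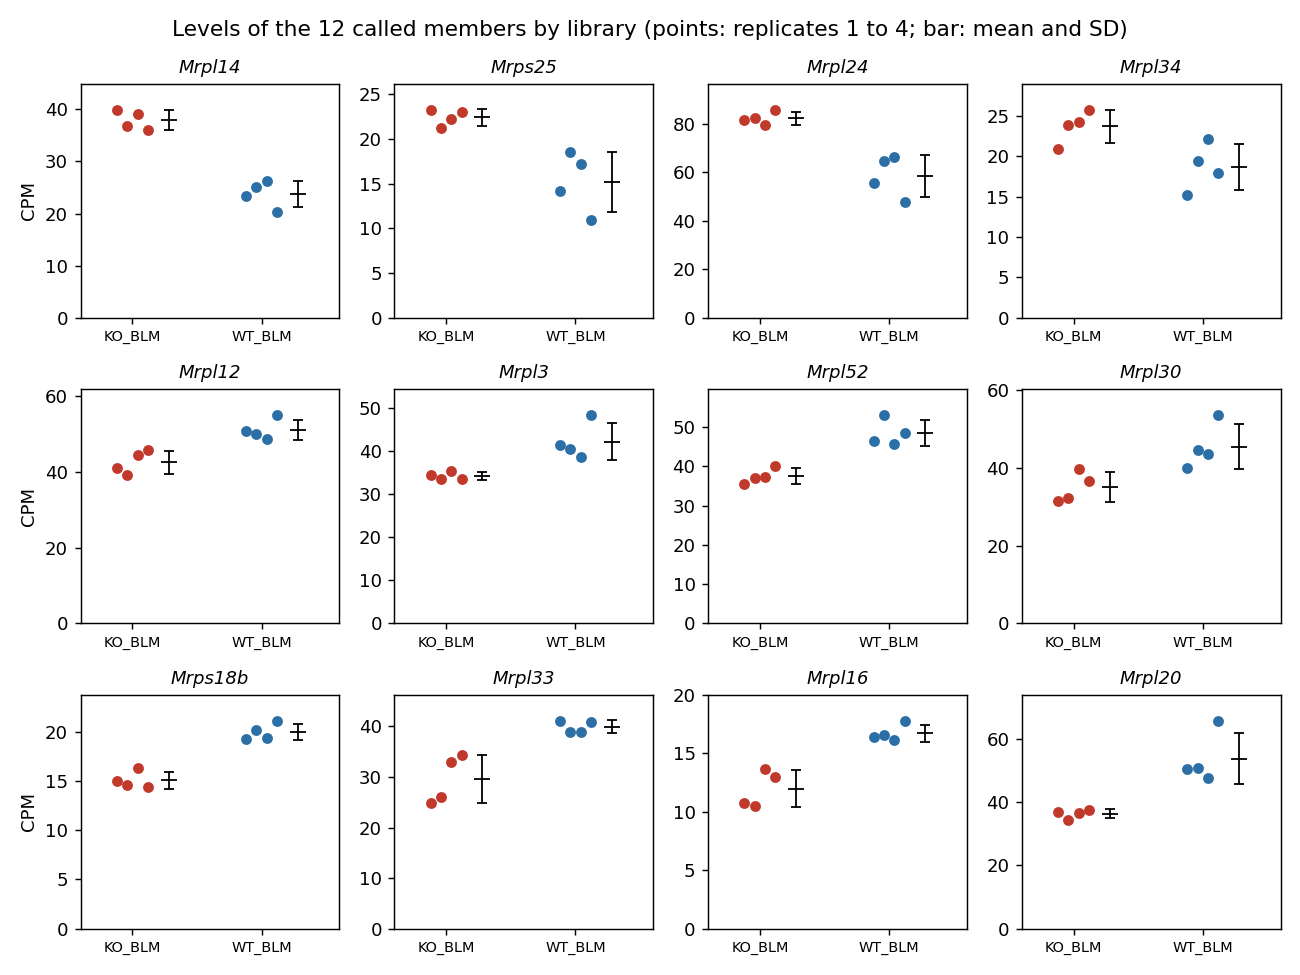
Level of the 12 called members in CPM (y axis, from 0) in each KO_BLM library (red) and WT_BLM library (blue), replicates 1 to 4 from left to right in each group, with the mean and SD as black bars. In 11 of the 12 panels the groups do not overlap, and replicate 4 of WT_BLM is the farthest from KO_BLM in several of them.

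Most calls fell on large subunit genes, which are also most of the members. Among the 49 Mrpl genes 3 rose and 7 fell (20.4% called, median log2 fold change -0.08), and among the 29 Mrps genes 1 rose and 1 fell (6.90% called, median -0.05). With Mrps18a and Mrps30 placed on the large subunit, where their proteins are known to sit, the large subunit held 51 genes with 3 higher and 7 lower and the small subunit 26 genes with 1 higher and 1 lower. Mrps36 is now known as a component of oxoglutarate dehydrogenase and was given no place. Of 45 members with a bacterial homologue 3 rose and 6 fell, and of 32 specific to mitochondria 1 rose and 2 fell. The median log2 fold change was -0.08 in both. Mrps18b, which fell, and Mrps18a were placed in the class specific to mitochondria, although they are paralogues of the bacterial S18 protein. These splits are counts without a test, and each share called was below the 41.5% of all genes tested. By placement, groups did not overlap for 29.4% of large and 30.8% of small subunit genes, beside 40.9% of all genes tested.

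Of the stalk proteins only Mrpl12 was called. Mrpl10, the base of the stalk, measured 55.4, 59.9, 64.8 and 57.1 CPM in KO_BLM, against 53.2, 61.0, 58.6 and 50.1 CPM in WT_BLM, and its groups overlapped (log2 fold change 0.09). Mrpl11 measured 21.5, 22.3, 23.9 and 22.1 CPM in KO_BLM, against 26.3, 25.7, 24.8 and 27.8 CPM in WT_BLM. All 4 KO_BLM libraries were below WT_BLM, yet the gene missed the threshold (log2 fold change -0.22, edgeR adjusted p = 0.0528). Mrpl45, which ties the ribosome to the inner membrane near the export machinery, measured 17.6, 17.8, 21.2 and 20.3 CPM in KO_BLM, against 20.5, 23.8, 21.6 and 20.3 CPM in WT_BLM, with overlap (log2 fold change -0.16, edgeR adjusted p = 0.216).

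In the small subunit, Mrps12, a protein of the decoding centre, measured 21.2, 22.5, 19.9 and 23.1 CPM in KO_BLM, against 19.96, 20.6, 20.3 and 19.1 CPM in WT_BLM, and the groups overlapped (log2 fold change 0.12, 95% interval -0.08 to 0.31). Mrps7, whose bacterial homologue starts the assembly of the subunit head, measured 42.5, 45.3, 47.7 and 46.8 CPM in KO_BLM, against 46.8, 47.96, 42.8 and 50.8 CPM in WT_BLM, with overlap (log2 fold change -0.05, 95% interval -0.22 to 0.13). Mrps2 measured 22.3, 23.3, 23.2 and 25.2 CPM in KO_BLM, against 27.3, 29.3, 26.7 and 25.9 CPM in WT_BLM. Its groups were separated by a narrow gap, and it did not pass the test (log2 fold change -0.22, edgeR adjusted p = 0.0573).

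A cluster of members lay just beyond the threshold. Besides Mrpl11 and Mrps2, these were Mrpl38 (log2 fold change 0.19, edgeR adjusted p = 0.0536), Mrps35 (0.26, 0.0546), Mrpl58, the peptidyl-tRNA hydrolase ICT1 (0.23, 0.0564), Mrps6 (0.42, 0.0565), Mrpl49 (0.39, 0.0569) and Mrpl2 (-0.23, 0.0596). In all, 25 of the 78 members had an unadjusted p under 0.05, beside 7536 of the 14746 genes tested, which is a larger share. Mrps25, Mrpl49 and Mrps6 had the widest spread within groups, with an SD of 0.23 to 0.24 on the log2 scale. Mrpl49 measured 29.1, 31.0, 31.7 and 26.3 CPM in KO_BLM, against 19.8, 25.4, 27.6 and 17.1 CPM in WT_BLM, and replicates 1 and 4 of WT_BLM were its lowest. Mrps6 measured 12.2, 12.1, 14.1 and 17.4 CPM in KO_BLM, against 9.46, 11.4, 12.1 and 8.77 CPM in WT_BLM, with replicate 4 of KO_BLM the highest.

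By level per length, Mrpl52, Mrpl33 and Mrpl54 led the Mrpl genes and Mrps21, Mrps18c and Mrps24 the Mrps genes by FPKM, a count scaled to gene length and library size. This order rests on the deposited lengths, such as 412 bases for Mrpl52 and 466 for Mrpl33. Exons of these genes in GENCODE M21 cover 1109 and 7326 bases. Mrpl33 averaged 65.5 ± 12.2 FPKM in KO_BLM and 83.1 ± 1.09 FPKM in WT_BLM. Mrps21 averaged 70.7 ± 9.46 FPKM in KO_BLM and 57.5 ± 6.39 FPKM in WT_BLM, and it was not called (log2 fold change of counts 0.21, edgeR adjusted p = 0.123). Its CPM values were 32.2, 31.1, 37.9 and 38.5 in KO_BLM, against 28.7, 31.5, 33.0 and 27.6 in WT_BLM, so the groups overlapped. Mrpl54 averaged 47.2 ± 5.96 FPKM in KO_BLM and 51.5 ± 3.52 FPKM in WT_BLM, and Mrps24 38.9 ± 2.84 and 39.0 ± 2.11 FPKM (SD, n = 4 each). Mrpl54 measured 25.8, 23.3, 29.9 and 28.4 CPM in KO_BLM, against 30.3, 33.2, 30.5 and 30.6 CPM in WT_BLM, without overlap and without a call (edgeR adjusted p = 0.0926). Mrps24 measured 36.47, 40.51, 40.66 and 34.83 CPM in KO_BLM, against 41.03, 36.45, 40.98 and 44.11 CPM in WT_BLM, with overlap. Over all members the mean level ran from 2.69 to 104 FPKM.

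Cytosolic ribosomal proteins, which build the ribosome that makes these members, were set beside them. Of 79 such genes 0 rose and 54 fell (68.4%), with a median log2 fold change of -0.31, where 8 of 78 mitochondrial ones fell. Of all genes tested, 20.8% were called lower. Their summed level was 29180 ± 1690 CPM in KO_BLM and 36350 ± 2440 CPM in WT_BLM (SD, n = 4 each), without overlap. Under scaling by totals 29 of the 79 fell, and without KO_BLM replicate 2 26 fell. The difference between the 2 sets was not tested.

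**Figure D3:**
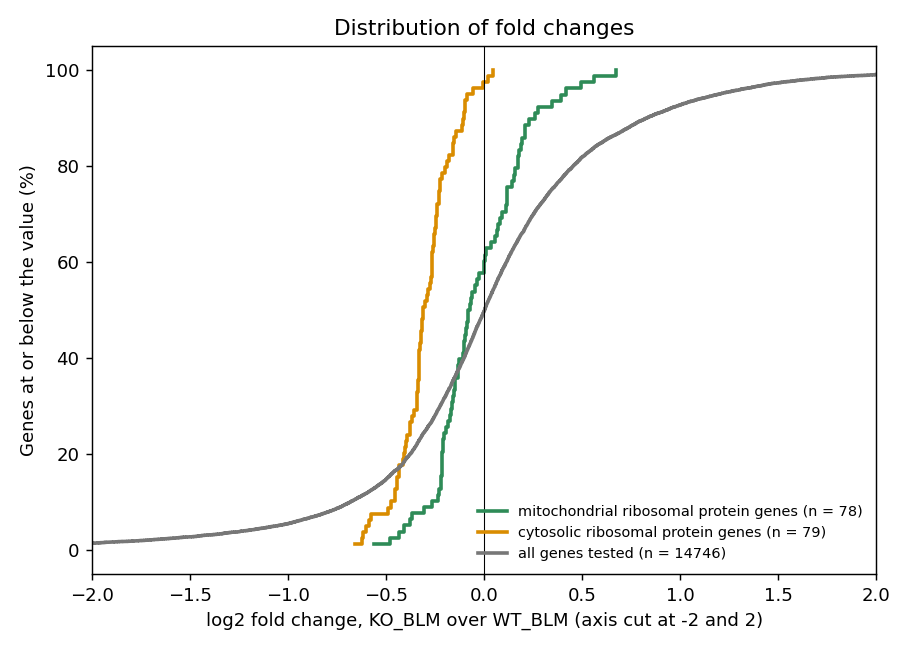
Cumulative share of genes (y axis, percent) by log2 fold change in KO_BLM over WT_BLM (x axis) for the 78 mitochondrial (green) and 79 cytosolic (orange) ribosomal protein genes and all 14746 genes tested (grey). The green curve is steeper than the grey and crosses it near 0, while the orange curve lies to the left, with a median of -0.31.

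The machinery around the mitochondrial ribosome was described with lists of its assembly, translation and transcription factors. Shares called in these lists are to be read beside the 41.5% of all genes tested (20.7% higher, 20.8% lower). The 5 mitoribosome subunits that go by other names gave no call (0 at an unadjusted p under 0.05), among them Dap3 (47.7 ± 2.18 CPM in KO_BLM and 48.9 ± 1.57 CPM in WT_BLM) and Ptcd3 (22.2 ± 1.19 and 19.9 ± 1.59 CPM). Of 28 genes for ribosome assembly and RNA modification 8 rose and 2 fell (35.7% called), with a median log2 fold change of 0.13. Tfb1m, a methyltransferase of the small subunit RNA, rose most (6.37 ± 0.183 CPM in KO_BLM and 3.16 ± 1.14 CPM in WT_BLM; log2 fold change 1.01, edgeR adjusted p = 0.00951). The assembly GTPase Mtg2 rose by 0.74 and the mitochondrial terminator family protein Mterf3 by 0.49 on the log2 scale (edgeR adjusted p = 0.00563 and 0.00508). Malsu1, which binds the MRPL14 protein and keeps the subunits apart during assembly, fell to 10.4 ± 1.12 CPM in KO_BLM, against 15.1 ± 2.78 CPM in WT_BLM (log2 fold change -0.53, edgeR adjusted p = 0.0176).

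Of 16 mitochondrial translation factors 5 rose and 0 fell (31.2% called, median log2 fold change 0.13), and leaving out KO_BLM replicate 2 or WT_BLM replicate 1 left 1 call, KO_BLM replicate 1 left 2 and KO_BLM replicate 4 left 3. Gfm2, which releases ribosomes for recycling, averaged 35.2 ± 0.942 CPM in KO_BLM and 24.3 ± 3.98 CPM in WT_BLM (log2 fold change 0.53, edgeR adjusted p = 0.00621). Tufm, the elongation factor that delivers tRNA, was not called (log2 fold change 0.15, edgeR adjusted p = 0.388). Of 20 mitochondrial aminoacyl-tRNA synthetases 4 rose and 1 fell (25.0% called), with Cars2 at a log2 fold change of 0.59 (edgeR adjusted p = 0.00275) and Iars2 at -0.47 (edgeR adjusted p = 0.00997). Of 20 genes for transcription and maintenance of mitochondrial DNA 6 rose and 0 fell (30.0% called). In either direction, the share called was below that of all genes in each of these 4 lists. All calls of the translation factors (31.2%) and of the DNA list (30.0%) were rises, beside 20.7% of all genes tested called higher. Rises were 8 of the 28 assembly genes and 4 of the 20 synthetases, to be read beside the same share. The DNA maintenance genes that rose included the nucleotide enzymes Rrm2b (0.64, edgeR adjusted p = 0.000258) and Dguok (0.71, edgeR adjusted p = 0.00149), whereas Tfam (0.09) and the RNA polymerase Polrmt (0.18) were not called.

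Regulators of mitochondrial biogenesis gave 1 rise and 3 falls among 13 genes (30.8% called). Myc, a transcription factor that raises ribosome production in many cells, fell to 14.3 ± 2.75 CPM in KO_BLM, against 58.2 ± 12.7 CPM in WT_BLM (SD, n = 4 each; log2 fold change -2.03, edgeR adjusted p = 4.86e-05). Ppargc1b, a coactivator of respiratory genes, had a log2 fold change of -0.83 (edgeR adjusted p = 0.00488). Nrf1, Gabpa and Yy1, which encode factors whose motifs were counted above, were not called. Nrf1 averaged 31.8 ± 3.26 CPM in KO_BLM and 31.2 ± 3.05 CPM in WT_BLM, Gabpa 40.4 ± 1.78 and 43.4 ± 5.40 CPM, and Yy1 107 ± 2.06 and 113 ± 7.52 CPM (edgeR adjusted p of Yy1 = 0.367).

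The respiratory chain holds the products of the mitochondrial ribosome together with nuclear subunits, and only the nuclear ones were analysed here. Of 36 nuclear genes of complex I 2 rose and 3 fell (13.9% called, median log2 fold change -0.02), and of 34 nuclear genes of complexes III to V 0 rose and 13 fell (38.2% called, median -0.13). Of 4 genes of complex II, which has no mitochondrially encoded subunit, 0 rose and 2 fell (median -0.19). Under scaling by totals these counts were 4 and 0 for complex I and 1 and 4 for complexes III to V. Without KO_BLM replicate 2 the falls numbered 0 and 3, and without KO_BLM replicate 1, KO_BLM replicate 4 or WT_BLM replicate 1 they numbered 1 and 7, 0 and 8, and 0 and 7. Without WT_BLM replicate 4 complexes III to V had 7 falls. Atp5g1, a proton channel subunit of ATP synthase, averaged 47.1 ± 4.56 CPM in KO_BLM and 61.1 ± 1.58 CPM in WT_BLM (log2 fold change -0.38, edgeR adjusted p = 0.00620). Of 18 genes for protein import and folding in mitochondria 0 rose and 8 fell (44.4% called). Among these was Tomm20, a receptor of the outer membrane, at a log2 fold change of -0.66 (edgeR adjusted p = 0.00249). The counts as reported in this paragraph are to be read beside 41.5% of all genes tested, 20.7% called higher and 20.8% lower.

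**Figure D4:**
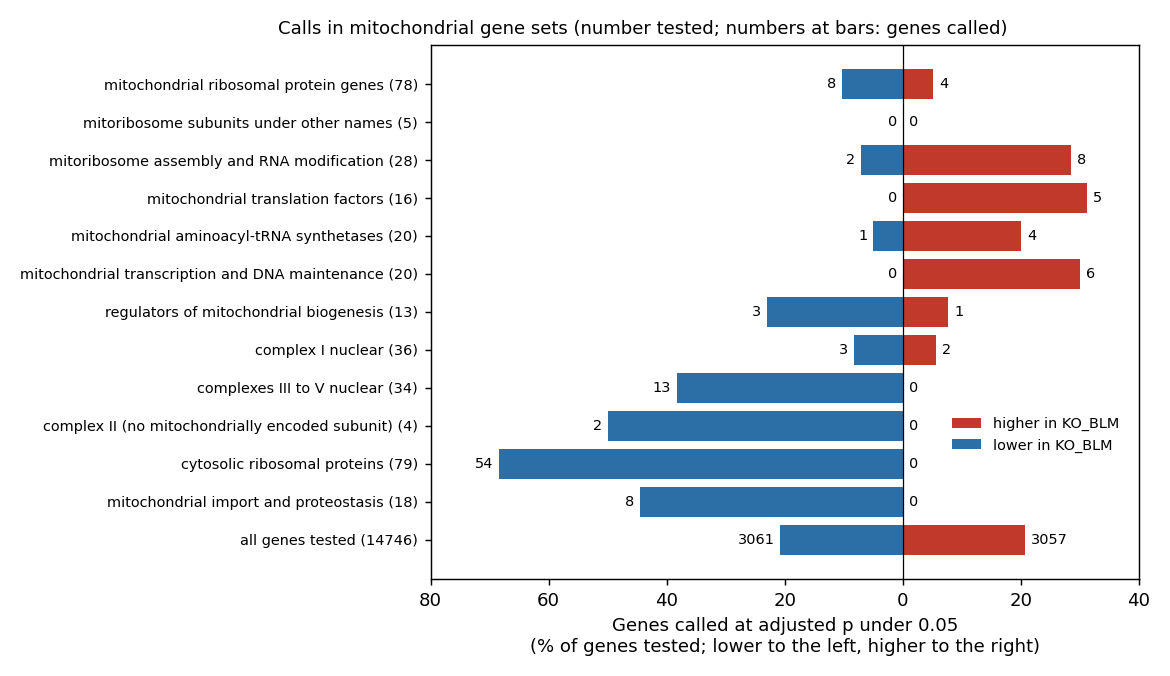
Share of genes called in each set (x axis, percent of genes tested; higher in KO_BLM to the right in red, lower to the left in blue), with the number tested after each name and the number called at each bar. The members have 4 higher and 8 lower, cytosolic ribosomal proteins 54 lower, and translation factors 5 higher.

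The members lie on 17 chromosomes, with 11 on chromosome 11 and 8 on chromosome 17. In GENCODE M21, 18 members (23.1%) had a protein-coding gene starting upstream on the other strand within 1000 bases, beside 9.16% of 14382 tested protein-coding genes. Mrpl46 and Mrps11, whose exons overlap on opposite strands, were not counted as such a pair. No such neighbour was called together with its member. Ska3, which starts 49 bases from Mrpl57, fell (log2 fold change -1.24, edgeR adjusted p = 0.00489), and Lrrc46, 153 bases from Mrpl10, rose (1.07, edgeR adjusted p = 0.00365), while neither Mrpl57 (-0.08) nor Mrpl10 (0.09) was called. Exons of 33 members (42.3%) overlapped exons of another gene. Among the 45 without such overlap 1 rose and 4 fell (11.1%), with a median log2 fold change of -0.08.

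Of the 12 calls, 7 held under all 21 alternative settings, those of Mrpl14, Mrps25, Mrpl24, Mrpl20, Mrpl16, Mrps18b and Mrpl52, and none changed its sign. The share of members called lay between 10.3% and 33.3% over the settings, while that of all genes lay between 30.2% and 51.9%, and the share of members was the lower one under each of them. No member reached a log2 fold change of 1 in size under any of them. Without WT_BLM replicate 4, 3 members were called higher and 9 lower, and without KO_BLM replicate 2, 3 higher and 5 lower.

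**Figure D5:**
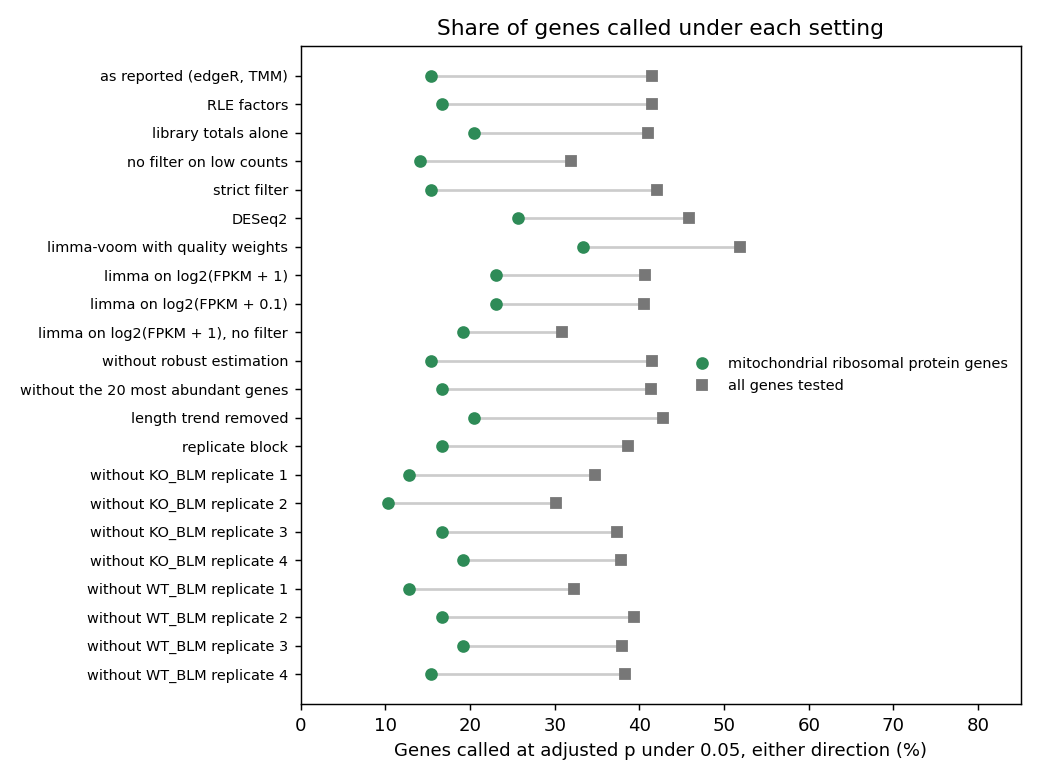
Share of genes called in either direction (x axis, percent) under the reported test and each of 21 alternatives (rows) for the members (green circles) and all genes tested (grey squares). The members lie between 10.3% and 33.3% and to the left of all genes in every row.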

How the data were processed

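RNA of mouse lung was extracted with TRIzol and made into libraries with a stranded mRNA kit, per the labels' protocols. Per gene symbol, the authors deposited raw read counts, without normalization, and FPKM values, each equal to the count over the column total and 1 length per gene (100% within a relative tolerance of 1e-06). Trimmomatic, HTSeq, Cufflinks, DESeq and the mm10 build are named in the submitters' processing notes, without role. Which aligner, annotation and strand setting were used is not given in the sources used here. Groups came from sample titles, and columns named PHT2 were matched to the knockout samples; 0 columns belonged to other samples.

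Counts were tested with edgeR 4.0.16 in R 4.3.3 (TMM factors, filterByExpr with minimum count 10 and total 15, robust glmQLFit, quasi-likelihood F test, Benjamini-Hochberg at 0.05 over all genes tested). Each standard error is the log2 fold change divided by the root of F, and 95% intervals use the fit's degrees of freedom. The biological coefficient of variation was 16.6%. Total counts of 17627999 to 20180831 gave every member at least 107 counts per library. Replicates of a group differed by more than sampling noise. The members, lists and named genes were chosen with earlier results of these data known. Named with values per library were the called members, the most abundant ones per length, the S18 paralogues, preset stalk and small subunit genes and those of widest spread. Genomic neighbours, Mrpl38, Mrps35, Mrpl58 and Mrpl2 were chosen after their values were seen.

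Alternatives were RLE factors, library totals alone, other filters, DESeq2 1.42.0, limma 3.58.1 with voom quality weights or on log2(FPKM + 1) and log2(FPKM + 0.1), fits without robust estimation or the 20 most abundant genes, removal of a length trend, a replicate block, and each library left out. Counting only members without exon overlap was added after seeing the data. The edgeR fit, with and without removal of the length trend, DESeq2 and voom were tried on simulated counts, and the other settings were not. Coordinates come from NCBI RefSeq (GRCm38.p6) and overlaps from GENCODE M21, in which all 78 members matched.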

Additional observations from a re-analysis of the deposited data

Results flagged for a closer look

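Single libraries stood apart from the other 3 of their group for 4 of 70 groups of values checked with Dixon's ratio of the gap to the range, and chance alone flags about 1 in 20 groups. Mrps15 measured 34.68 CPM in KO_BLM replicate 4, with the nearest KO_BLM library at 30.86 CPM (ratio 0.957). Mrps5 measured 21.98 CPM in KO_BLM replicate 1, with the nearest at 20.70 CPM (ratio 0.859). Mrpl58 measured 37.49 CPM in WT_BLM replicate 2, with the nearest WT_BLM library at 32.68 CPM (ratio 0.904). Mrpl54 measured 33.23 CPM in WT_BLM replicate 2, with the nearest at 30.61 CPM (ratio 0.894). None of these genes was called in the quasi-likelihood test.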

How the results depend on the processing

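Values below are counts called higher and lower in KO_BLM (for the members 4 and 8 as reported), and the cause of each change was not tested. With library totals alone the members gave 11 and 5, with a median log2 fold change of 0.01. Mrpl genes gave 8 and 4, Mrps genes 3 higher, complex I 4 and 0, complexes III to V 1 and 4, complex II 0 lower (2 as reported) and cytosolic ribosomal proteins 29 lower. On log2(FPKM + 1) and log2(FPKM + 0.1), limma gave 13 and 5 members (Mrpl 7 and 4, Mrps 6 higher), a median of 0.01, 5 higher in complex I (1 lower with the smaller pseudocount), 1 and 3 in complexes III to V, 0 lower in complex II (1 higher with the larger pseudocount) and 25 lower cytosolic genes. On log2(FPKM + 1) without a filter it gave 11 and 4 members (Mrpl 7 and 3, Mrps 4 higher), a median of 0.01, 1 lower assembly gene, 4 higher in complex I, 1 and 3 in complexes III to V, 1 and 0 in complex II and 19 lower cytosolic genes. DESeq2 called 9 members higher (Mrpl 6, Mrps 3 and 2) and 5 complex I genes lower. Voom with quality weights called 10 and 16 members (Mrpl 8 and 13, Mrps 2 and 3), 2 synthetases and 7 complex I genes lower and 1 import gene higher. Removal of the length trend gave 2 and 2 for Mrps and 4 and 5 for complex I. Without a filter 3 translation factors were higher. Members without exon overlap numbered 1 and 4.

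No pairing of libraries by replicate number was seen, although these values cannot exclude it. Deviations of libraries with the same number correlated between -0.0922 and 0.0887, and those with different numbers between -0.148 and 0.14. With the replicate block 5 members were higher and 8 lower, 2 translation factors higher and 1 complex I gene lower.

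Leaving out 1 library at a time gave 3 to 6 members higher and 5 to 10 lower, Mrpl 4 to 8 lower, Mrps 1 to 2 higher and 1 to 2 lower, assembly genes 5 to 8 higher and 1 to 3 lower, translation factors 1 to 5 and biogenesis regulators 0 to 1 higher, synthetases 1 to 2 lower, import genes 0 to 1 higher, complex I 1 to 2 higher and 0 to 4 lower, complex II 0 to 2, complexes III to V 3 to 13 and cytosolic genes 26 to 56 lower. The 5 lower members, 4 lower Mrpl genes and 26 lower cytosolic genes came without KO_BLM replicate 2, and the 5 higher assembly genes without WT_BLM replicate 1.

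Signs turned for genes near 0 and not called. Under library totals, log2(FPKM + 1), log2(FPKM + 0.1) and log2(FPKM + 1) unfiltered, Mrps18a was at 0.08, 0.08, 0.09 and 0.08, Mrps7 at 0.04 in each, Mrpl57 at 0.0069, 0.0057, 0.0062 and 0.0057, Mrpl32 at 0.07, 0.06, 0.06 and 0.06, Dap3 at 0.05 in each, Nr2c2 at 0.03, 0.03, 0.04 and 0.03, and Tmem63b at 0.07 in each. Yy1 was at 0.0022, 0.0024 and 0.0022 under the 3 FPKM settings. Voom gave Mrpl32 0.01, Nr2c2 0.0036 and Tmem63b 0.09. Mrps18a was at 0.0011 under the strict filter and 0.0004 with the replicate block, and Nrf1 at -0.02 without the length trend. Over left-out libraries Mrps18a ranged from -0.04 to 0.05, Mrpl32 from -0.12 to 0.06, Nrf1 from -0.04 to 0.09, Nr2c2 from -0.11 to 0.03 and Tmem63b from -0.08 to 0.07. Mrpl33 lost its call on log2(FPKM + 1) unfiltered (adjusted p = 0.0538). With 4 libraries a group and an intermediate spread, changes well under 1.5-fold may go undetected.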

Other observations

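Among the KO_BLM libraries, replicate 4 held the highest of the 8 values for 17 of the 78 members (21.8%, beside 14.6% of all genes tested). Replicates 1 and 2 of KO_BLM held the lowest for 17 each (21.8%, beside 15.3% and 9.84% of all genes tested). Replicate 4 of WT_BLM held the highest for 26 (33.3%) and the lowest for 20 (25.6%), beside 25.2% and 25.8% of all genes tested. On the first principal component of the members' log2 levels, which held 65.8% of their variance, the KO_BLM libraries lay between -1.24 and -0.715 and WT_BLM replicates 1 to 3 at 1.10, 0.612 and 0.367, with WT_BLM replicate 4 at 2.06. The layout over all genes was like it, with 66.5% of the variance on the first component, KO_BLM between -52.0 and -34.9, WT_BLM replicates 1 to 3 between 33.6 and 44.0 and WT_BLM replicate 4 at 61.6. The summed level of the members in WT_BLM replicate 4 was 2200 CPM, within the range of the other WT_BLM libraries.

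The exons of Mrps34 overlap those of Nme3 on the same strand over 763 bases and those of Mapk8ip3 on the opposite strand over 1309 bases. Nme3, a nucleoside diphosphate kinase gene, rose in KO_BLM (log2 fold change 0.86, edgeR adjusted p = 0.00297), and so did Mapk8ip3 (0.41, edgeR adjusted p = 0.0171), whereas Mrps34 had a log2 fold change of -0.21 and was not called. Psma2, a proteasome subunit gene that starts 75 bases from Mrpl32 on the other strand, fell (-0.38, edgeR adjusted p = 0.0322), and Mrpl32 was at -0.03.

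The deposited gene length of the 4 members called higher had a median of 4232 bases (range 646 to 7525). For the 8 called lower the median was 1132 bases (412 to 8707), and for the 66 not called 1412 bases (502 to 8356). These ranges overlap widely, and the lengths were not tested. With each library's trend over gene length removed, the same 4 members were among 6 called higher and the same 8 among 10 called lower.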
